A study of Homo sapiens with 4 samples.

Results

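The genes described here are the numbered ZNF genes of human chromosome 19. RefSeq records on GRCh38.p14 were searched for the protein-coding genes of the chromosome whose symbol is ZNF, a number and at most 1 further letter. This gave 246 of the 1451 protein-coding genes of the chromosome. All 246 had a known strand and entered every count. Of the remaining genes, 1161 had a strand and served as the comparison, and 44 without a strand were left out. Across the genome 19675 of 20037 protein-coding genes were used.

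The peaks came from chromatin immunoprecipitation sequencing (ChIP-seq) of H3K27ac, acetylation of histone H3 at lysine 27, in MOLM13, an established human acute myeloid leukemia line that carries the MLL-AF9 fusion. Both libraries came from cells treated for 16 hours with OTX015 at 500 nM, which blocks the acetyl-lysine pockets of BET proteins. In 1 of them 500 nM SNDX-50469, an inhibitor of Menin, had been added for the same 16 hours, and this library is called the combination. There was 1 ChIP library per treatment and 1 cell line, so no difference between the treatments could be tested against replicate error, and no p-value between them is given. Neither untreated cells nor cells given SNDX-50469 alone entered the analysis.

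ZNF genes encode C2H2 zinc finger proteins, in which arrays of fingers read specific DNA sequences. Many of them also carry a KRAB domain, which binds the corepressor TRIM28 (KAP1), and TRIM28 brings the methyltransferase SETDB1 and HP1 proteins that lay down and hold H3K9 methylation, often over transposable elements. The genes arose by tandem duplication and stand in long clusters on chromosome 19, whose ZNF gene bodies carry H3K9 methylation in many cell types. H3K27ac marks active promoters and enhancers.

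The promoters of 6 members are shown because they hold the peak patterns described below. ZNF627 and ZNF766 had a promoter peak in both lists. ZNF507 and ZNF274 had one in the OTX015 list alone and ZNF791 in the combination list alone, and ZNF91 had none. Each sequence is the 250 bases before the RefSeq start (GRCh38.p14), 5′ to 3′ on the strand of the gene. Capitals mark the letters CCGGAAG (an ETS factor core) and CCAAT (the box bound by NF-Y) on either strand. The windows are chr19:11597233-11597482 (+) for ZNF627, chr19:52269337-52269586 (+) for ZNF766, chr19:32345360-32345609 (+) for ZNF507, chr19:58182811-58183060 (+) for ZNF274, chr19:12610670-12610919 (+) for ZNF791 and chr19:23395472-23395721 (−) for ZNF91.
ZNF627: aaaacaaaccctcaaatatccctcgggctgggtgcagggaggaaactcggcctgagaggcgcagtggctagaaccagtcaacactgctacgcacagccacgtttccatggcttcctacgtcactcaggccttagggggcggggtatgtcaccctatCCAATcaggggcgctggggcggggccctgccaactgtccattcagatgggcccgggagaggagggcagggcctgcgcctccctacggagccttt
ZNF766: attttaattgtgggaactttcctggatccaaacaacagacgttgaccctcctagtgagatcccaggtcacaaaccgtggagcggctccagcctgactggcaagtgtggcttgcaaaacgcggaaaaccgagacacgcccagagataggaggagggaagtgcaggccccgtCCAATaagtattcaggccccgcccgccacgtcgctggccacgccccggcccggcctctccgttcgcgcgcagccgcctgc
ZNF507: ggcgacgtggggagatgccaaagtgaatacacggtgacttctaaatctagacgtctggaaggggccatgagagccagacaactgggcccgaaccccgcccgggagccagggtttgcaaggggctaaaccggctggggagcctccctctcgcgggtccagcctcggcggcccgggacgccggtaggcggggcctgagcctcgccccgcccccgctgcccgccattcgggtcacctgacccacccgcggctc
ZNF274: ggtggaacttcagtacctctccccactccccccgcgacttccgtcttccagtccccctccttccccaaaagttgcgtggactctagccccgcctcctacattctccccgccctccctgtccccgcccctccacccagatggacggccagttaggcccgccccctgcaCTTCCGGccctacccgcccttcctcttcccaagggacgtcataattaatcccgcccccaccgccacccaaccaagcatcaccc
ZNF791: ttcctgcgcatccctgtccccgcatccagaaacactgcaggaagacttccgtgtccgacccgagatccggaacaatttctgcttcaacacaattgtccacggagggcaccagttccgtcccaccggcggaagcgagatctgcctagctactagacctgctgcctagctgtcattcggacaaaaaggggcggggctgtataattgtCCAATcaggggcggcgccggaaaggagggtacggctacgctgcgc
ZNF91: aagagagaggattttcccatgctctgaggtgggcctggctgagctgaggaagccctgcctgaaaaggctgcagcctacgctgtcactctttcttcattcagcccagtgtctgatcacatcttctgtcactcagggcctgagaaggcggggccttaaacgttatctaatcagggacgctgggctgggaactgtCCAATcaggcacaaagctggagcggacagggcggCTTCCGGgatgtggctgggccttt

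CG dinucleotides, the sites of DNA methylation, numbered 12 in the ZNF627 window, 20 in ZNF766, 23 in ZNF507, 14 in ZNF274, 19 in ZNF791 and 7 in ZNF91. CCAAT stood in the windows of ZNF627, ZNF766, ZNF791 and ZNF91, the ETS letters stood in those of ZNF274 and ZNF91, and ZNF507 had neither. These letters did not separate the members with a peak from ZNF91, which had both motifs and no peak in either list.

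The OTX015 list held 55852 peaks in all and the combination list 86207, of which 3056 and 4531 lay on chromosome 19. The background that the peak caller used, solved from the lowest peaks of each list, was 0.764 and 1.47 fragments per base, a ratio of 1.92. The combination list thus had the higher background, but without read totals this does not settle which library was deeper. Its lowest peaks reached 4.76 times the background against 6.54 times in the OTX015 list. Markers of the labelled cell type were present. Of 10 myeloid genes, 6 had a promoter peak in each list and 7 in either (SPI1, CEBPA, CEBPE, MPO, LYZ, MYB and FLT3). Of 4 B cell and 3 erythroid genes none did, of 5 T cell genes 1 and 2 did (CD3D and CD3G), and of 5 genes of tissues outside blood 0 and 1 did (GFAP).

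ZNF genes had fewer promoter peaks than the other genes of their chromosome, and fewer with the combination than with OTX015 alone. A promoter peak is a peak that touches the outer 5′ end of the gene or the 1 kb on either side of it. With OTX015 it was found for 24 of 246 ZNF genes (9.76%, Wilson 95% interval 6.64 to 14.1), against 27.8% of the other chromosome 19 genes (323 of 1161, 25.3 to 30.5) and 14.9% of all protein-coding genes. With the combination it was found for 17 ZNF genes (6.91%, 4.36 to 10.8), against 35.2% of the other chromosome 19 genes (409 of 1161, 32.5 to 38) and 15.3% of all genes. The ZNF interval lay below that of the other chromosome 19 genes in each list. These intervals cover counting over genes only, and neighbouring genes can share a peak. The ratio of the combination count to the OTX015 count was 0.708 for the ZNF genes and 1.27 for the other genes of the chromosome, with the higher background in the combination list. The promoter share of genes other than ZNF was compared on chromosomes 1, 3, 5, 7, 8, 9, 10, 12, 16, 17, 19 and X. It was higher with the combination only on 8 (48% and 75.4%) and 19. On the rest it was lower, as on chromosomes 10 (12.7% and 9.28%) and 12 (14.6% and 11.5%). The 2 ZNF intervals overlapped, but they hold no replicate error. With 1 library per treatment they cannot decide whether the treatments differ.

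**Figure D1:**
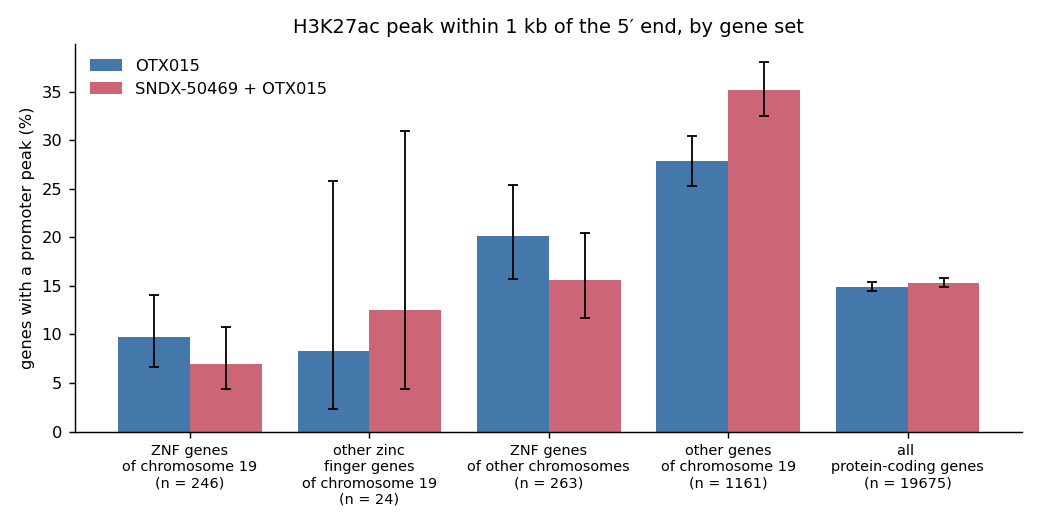
Bars show the percent of genes with an H3K27ac peak within 1 kb of the 5′ end in each gene set (x axis, n under each name), with 1 library per treatment and Wilson 95% intervals as error bars. ZNF genes of chromosome 19 stood at 9.76% and 6.91%, and the other genes of the chromosome at 27.8% and 35.2%.

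Few members kept a promoter peak across the treatments. A peak in both lists was found for 8 ZNF genes (ZNF414, ZNF627, ZNF700, ZNF428, ZNF296, ZNF766, ZNF524 and ZNF787), which is 3.25%, beside 18.9% of the other chromosome 19 genes and 9.02% of all genes. In neither list had 213 of 246 ZNF genes a promoter peak, beside 648 of 1161 other chromosome 19 genes and 15494 of all 19675 genes. A peak with OTX015 only was found for 16 ZNF genes (6.50%), beside 8.96% of the other chromosome 19 genes and 5.9% of all genes. One with the combination only was found for 9 ZNF genes (3.66%), beside 16.4% of the other chromosome 19 genes and 6.33% of all genes. Among the other chromosome 19 genes, 219 had a peak in both lists, 104 had one under OTX015 alone and 190 under the combination alone. The share with OTX015 only was thus close to the genome background, while the share with the combination only was lower than both backgrounds.

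The ZNF promoter peaks that were present were of about the same strength as those of other genes at the median. The deposited fold enrichment is the pileup plus 1 over the background plus 1, averaged over a peak, so folds of the lists rest on different backgrounds and are not directly comparable. It had a median of 3.68 with OTX015 and 3.67 with the combination over the strongest promoter peak of each ZNF gene, and 3.86 and 3.57 for the other genes. The highest ZNF promoter peaks reached 5.28 and 4.30, against 7.68 and 6.80 for the others. These maxima are over 24 and 17 ZNF genes and over 323 and 409 others. A −log10 q of 2 or more, a false discovery rate of 1% or less by the peak caller, was reached at 4 of 24 and 5 of 17 ZNF promoters and at 99 of 323 and 123 of 409 of the other promoters. With this stricter limit ZNF promoters were again lower (1.63% and 2.03%) than the others (8.53% and 10.6%), but the order of the treatments turned.

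Peak cover was highest just inside the gene. At 0.25 kb downstream of the 5′ end, 5.28% of the ZNF genes lay in a peak with OTX015 and 4.07% with the combination, against 12.0% and 12.9% of the other genes. At the 5′ end itself the ZNF values were 1.63% and 2.03% and the others 6.03% and 11.7%. Of the 24 ZNF promoter peaks with OTX015, 15 lay wholly downstream of the 5′ end (62.5%, against 49.0% for the other genes), 5 upstream (20.8% against 31.3%) and 4 across it (16.7% against 19.7%). With the combination, where 2 genes had 2 peaks each, 11 of 19 lay downstream (57.9% against 42.4%), 3 upstream (15.8% against 29.5%) and 5 across it (26.3% against 28.1%).

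**Figure D2:**
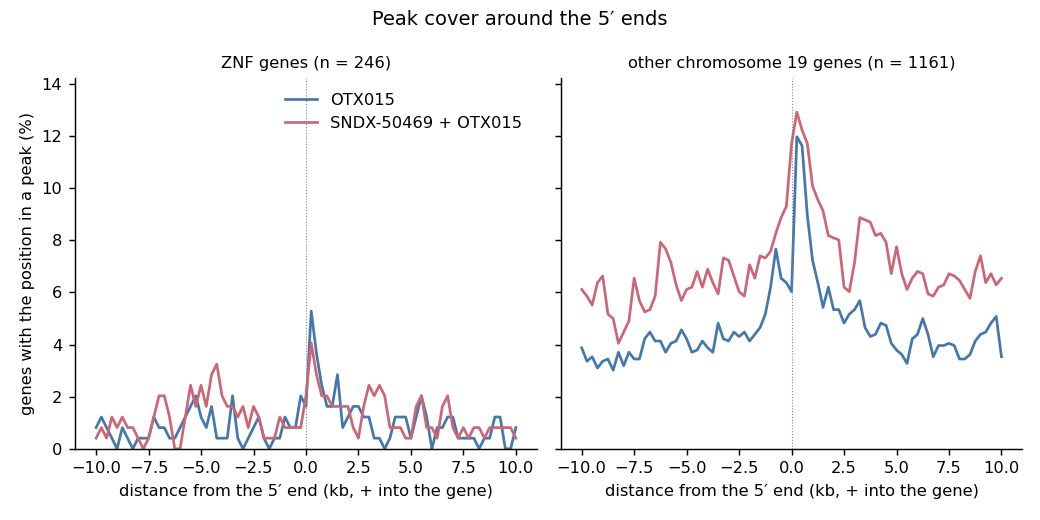
Percent of genes (y axis) for which a position at a given distance from the 5′ end (x axis, kb, positive into the gene) lay in a peak, for ZNF genes on the left and other chromosome 19 genes on the right, with 1 line per treatment. Both groups peaked 0.25 kb into the gene, ZNF genes at 5.28% and 4.07% and the others at 12.0% and 12.9%.

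Only ZNF627 and ZNF700, KRAB zinc finger genes of the cluster that runs from ZNF653 to ZNF791, had a promoter peak with a −log10 q of 2 or more in both lists. The ZNF627 peak was 907 bp long with a fold of 4.21 with OTX015 and 511 bp long with a fold of 3.97 with the combination. For ZNF700 the peaks were 444 bp at 4.84 and 284 bp at 3.78. In both genes the combination peak was shorter, and its fold, on a different background, was smaller. The −log10 q was 2.11 with OTX015 and 2.33 with the combination for ZNF627, and 3.10 and 2.01 for ZNF700. The body of ZNF69, which overlaps ZNF700, contains the same promoter peak.

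ZNF766, a KRAB zinc finger gene, had the strongest ZNF promoter peak of the OTX015 list, 540 bp long with a fold of 5.28, at 121 bp into the gene. In the combination list its peak was longer, at 958 bp, and the fold was 3.38. ZNF414 and ZNF524 are short genes whose bodies were largely under peaks. ZNF414 had a promoter fold of 3.98 with OTX015 and 4.04 with the combination, and peaks covered 38.1% and 69.5% of its 4.49 kb. ZNF524, whose product binds telomeres, had 3.67 and 4.30, the highest fold of any ZNF promoter peak in the combination list, and 50.7% and 73.3% of its 3.56 kb was covered. Its 5′ end lies within 2 kb of that of FIZ1. As plain ratios of pileup to background the order of both genes turned, with 7.89 and 6.12 for ZNF414 and 7.17 and 6.55 for ZNF524. ZNF787 went the other way in cover, with 1.97 kb at a fold of 3.91 under OTX015 and 0.125 kb at a fold of 3.40 under the combination. ZNF428 (3.87 and 3.36) and ZNF296 (3.60 and 3.24) completed the members with a peak in both lists, and the combination peak of ZNF296 sat at the lowest fold of its list.

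Among the members with a peak with OTX015 only, the strongest by −log10 p were ZNF507 (fold 5.01), ZNF714 (4.07), ZNF146 (3.95), ZNF274 (3.86), ZNF101 (3.77) and ZNF222 (3.69). ZNF274 binds the 3′ ends of other ZNF genes and recruits SETDB1 there, and ZNF146 is a protein made of zinc fingers with no KRAB domain. The 435-bp ZNF274 peak began 242 bp into the gene, and in the combination list the nearest peak was 195 kb from its 5′ end. For ZNF714 that distance was 409 kb, while for ZNF101 it was 4.16 kb and for ZNF222 2.66 kb. The −log10 q of these 6 peaks was 3.49 for ZNF507 and between 1.42 for ZNF222 and 1.93 for ZNF714 for the others.

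The members with a peak with the combination only had folds between 3.50 for ZNF333 and 3.96 for ZNF557 among the 6 strongest, with 3.75 for ZNF581 and 3.72 for ZNF302 between them. ZNF490 and ZNF791 are divergent genes whose 5′ ends lie 107 bp apart, and they shared a single 464-bp peak with a fold of 3.67, which lies inside ZNF791. A −log10 q of 2 was reached by ZNF557 alone, at 2.26. With OTX015 the nearest peak was 82.7 kb from the 5′ end of ZNF557, 16.0 kb from that of ZNF791 and 7.76 kb from that of ZNF581.

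Gene bodies gave the same order. The gene body is the whole gene record from end to end. With OTX015, peaks covered 53.2 kb of 7.04 Mb of ZNF gene bodies (0.756%), and with the combination 42.5 kb (0.604%). For the other chromosome 19 genes the cover was 4.35% and 5.99% of 24.6 Mb, and for all protein-coding genes 1.08% and 1.80%. The combination to OTX015 ratio was 0.799 for the ZNF genes, 1.38 for the other genes of the chromosome and 1.66 for all genes. Over the peaks that reached a −log10 q of 2, the ratios no longer differed in direction, at 1.27 for ZNF bodies and 1.28 for the others, and likewise at 1.25 and 1.24 for promoters. Without ZNF536, the member with the largest loss, the ZNF cover was 42.3 kb and 38.4 kb, a ratio of 0.908. The lower sum does not rest on this gene alone. ZNF genes in clusters of 10 or more members (described below), which leave out ZNF536, had 36.8 kb and 25.8 kb. Those in smaller clusters or alone, ZNF536 included, had 16.4 kb and 16.7 kb. Cover in the first 10% of the body was 1.36% and 0.847% over the 239 ZNF genes of at least 5 kb, against 7.17% and 9.54% over 940 others.

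By gene, 100 ZNF genes (40.7%) had cover with OTX015, beside 60.6% of the other chromosome 19 genes and 38.9% of all genes. With the combination 62 ZNF genes (25.2%) had cover, beside 71.7% and 41.6%. The OTX015 share was thus close to that of all genes. No cover in either list was found for 123 of 246 ZNF genes, beside 222 of 1161 other chromosome 19 genes and 9280 of all 19675 genes. This ZNF share was also close to that of all genes. More cover with the combination was found for 42 ZNF genes (17.1%), beside 54.6% of the other chromosome 19 genes and 30.8% of all genes. Less cover was found for 81 ZNF genes (32.9%), beside 26.2% of the other chromosome 19 genes and 22% of all genes. The median difference among genes with any cover, combination minus OTX015, was −163 bp for the ZNF genes, +314 bp for the other genes of the chromosome and +124 bp for all genes. More ZNF genes thus had less cover with the combination than had more, and in both comparison sets the order was the opposite. For promoter peaks, genes other than ZNF also had a lower share with the combination on most chromosomes compared, as given above.

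ZNF536, a gene expressed in neurons that restrains neuronal differentiation, had the most cover of any ZNF gene in the OTX015 list, 10.9 kb against 4.10 kb under the combination, over its 488 kb, with no promoter peak in either. ZNF577 had the most of any ZNF gene in the combination list, 0.407 kb and 4.57 kb. Of the latter, 3.07 kb lay where its record overlaps FPR3, a formyl peptide receptor gene of myeloid cells. ZNF473, whose product takes part in histone mRNA processing, had 0.520 kb and 3.90 kb. The combination value was also the higher one at ZNF581 (0.892 and 2.76 kb), ZNF414 (1.71 and 3.12 kb), ZNF428 (0.687 and 1.80 kb) and ZNF555 (0.121 and 1.05 kb).

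Lower values with the combination were listed for ZNF234 (1.49 and 0.139 kb) and ZNF653 (0.998 and 0.682 kb). At ZNF331, an imprinted gene, cover was 0.906 kb with OTX015 and none was listed with the combination, and the same held for ZNF558 (0.870 kb) and ZNF709 (0.829 kb). Of the 246 members, 41 overlap another protein-coding record, so part of the cover of those genes, as at ZNF577 and ZNF69, is counted for a neighbour as well.

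**Figure D3:**
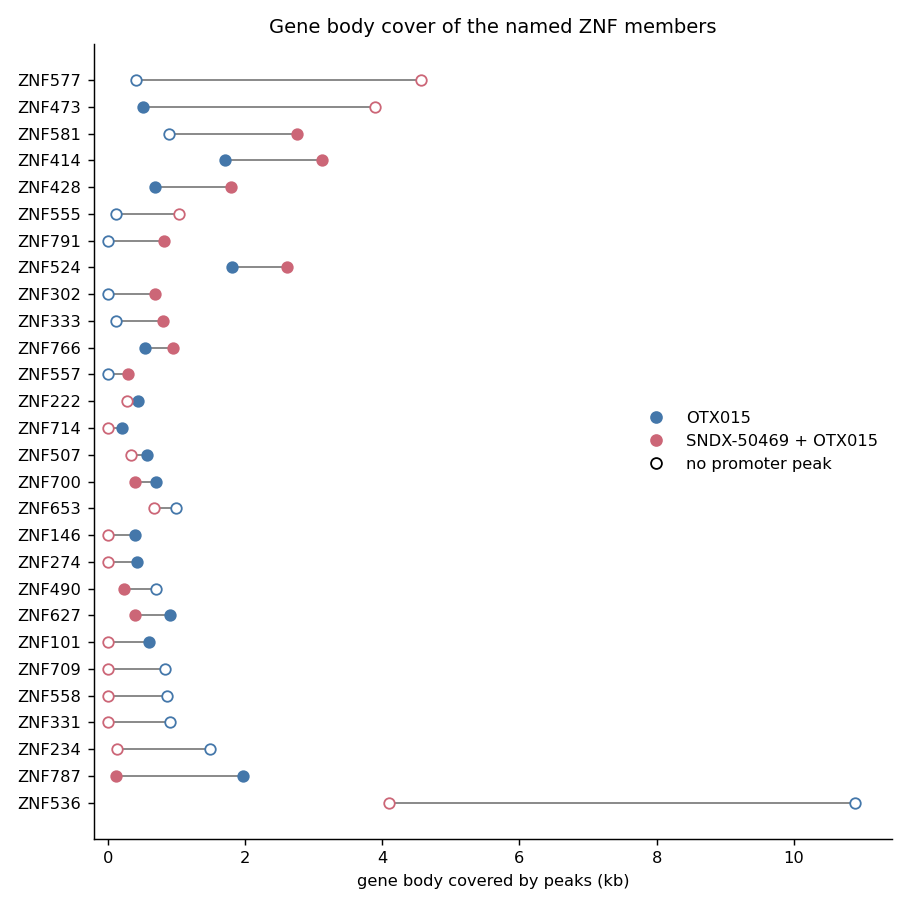
Gene body length under peaks (x axis, kb) for the ZNF members named by rule (y axis), with 1 point per treatment joined by a line, filled where the gene also had a promoter peak in that list. ZNF536 stood at 10.9 and 4.10 kb and ZNF577 at 0.407 and 4.57 kb.

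The peaks within ZNF gene bodies were mostly different peaks in the 2 lists. Of 162 OTX015 peaks in ZNF bodies, 18 (11.1%, Wilson 95% interval 7.14 to 16.9) met a combination peak by at least 1 bp, against 33.1% (31.1 to 35.2) of 2055 peaks in the other bodies. Of 122 combination peaks in ZNF bodies, 18 (14.8%, 9.54 to 22.1) met an OTX015 peak, against 21.5% (20.1 to 23) of 3229. The ZNF body peaks were short, with a median of 257.5 bp and 214 bp against 336 bp and 329 bp. At the lowest fold of its list stood 24.1% of the ZNF body peaks with OTX015 and 20.5% with the combination, against 22.5% and 14.8% of the peaks in other bodies. A −log10 q of 2 was reached by 12 of the 162 and 15 of the 122 ZNF body peaks, against 237 of 2055 and 428 of 3229 in other bodies.

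The lower cover with the combination was uneven along the chromosome. Members less than 500 kb apart were joined, which gave 20 clusters, of which 8 with 10 or more members held 222 ZNF genes. In 3 of these 8, singled out after their values were seen, the combination list was nearly empty. The pericentromeric cluster from ZNF101 to ZNF254, with 37 members over 4.46 Mb and home of ZNF91, held 37 peaks with OTX015 and 2 with the combination. From ZNF146 to ZNF573, with 26 members over 1.60 Mb, there were 23 and 1. The cluster next to the long arm telomere, from ZNF264 to ZNF446 with 43 members over 1.30 Mb, held 29 and 6.

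Together these 3 clusters had 12.1 peaks per Mb with OTX015 and 1.22 with the combination, and peaks covered 25.3 kb and 2.04 kb of 7.36 Mb. Among their 106 members, 8 had a promoter peak with OTX015 and 1 with the combination (ZNF530), and 37 and 4 had gene body cover. The other 5 large clusters, with 116 members, held 225 and 249 peaks, or 34.1 and 37.7 per Mb, with promoter peaks at 12 and 12 members and body cover at 50 and 38. In the rest of the chromosome the density was 61.6 and 96.0 peaks per Mb. Nearly all of these peaks were weak. A −log10 q of 2 was reached by 2 of the 89 OTX015 peaks in the 3 clusters and by 0 of the 9 combination peaks, against 16 and 29 in the other 5. With equal peak numbers in both lists, the combination list kept 3 peaks there and 163 in the other 5 clusters.

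**Figure D4:**
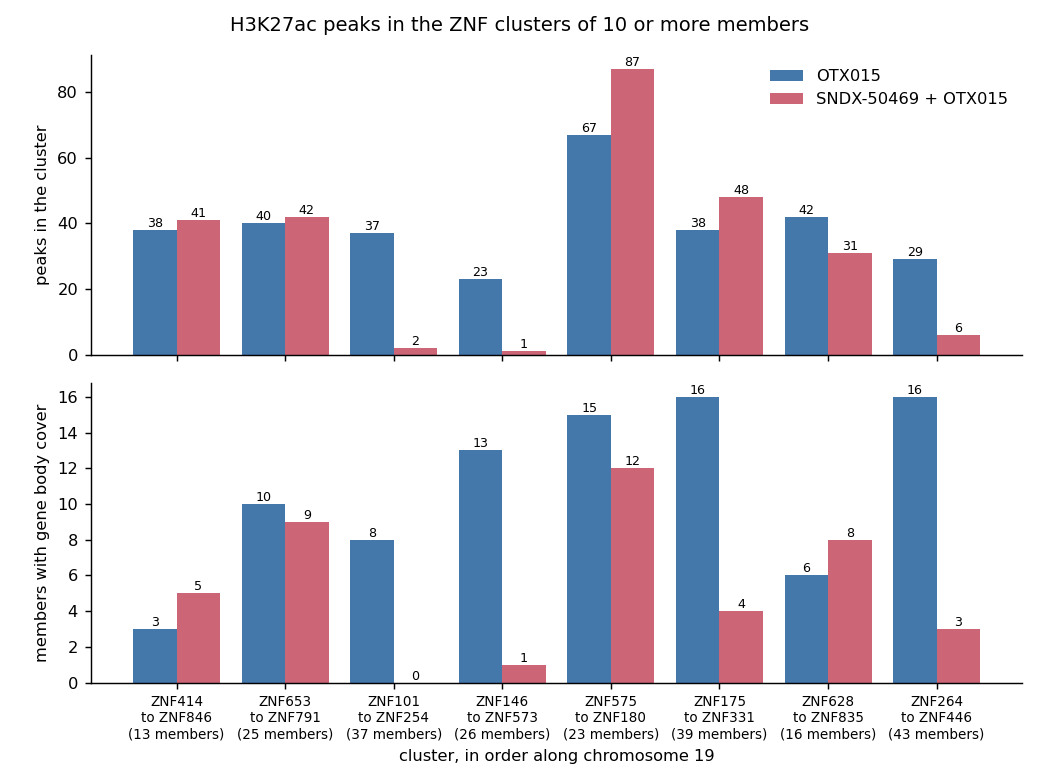
Number of H3K27ac peaks (upper y axis) and number of ZNF members with gene body cover (lower y axis) in the 8 clusters of 10 or more members, in order along chromosome 19 (x axis), with 1 library per treatment and no error bars. The clusters from ZNF101, ZNF146 and ZNF264 held 37, 23 and 29 peaks with OTX015 and 2, 1 and 6 with the combination, and the others held between 38 and 67 peaks with OTX015 and between 31 and 87 with the combination.

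Other genes inside the 8 large clusters had promoter peaks at 15 and 16 of 89 (16.9% and 18.0%). This was below the 28.7% and 36.7% of the 1072 outside them, but near the 14.9% and 15.3% of all protein-coding genes. ZNF genes inside had 20 and 13 of 222 (9.01% and 5.86%). The 24 ZNF genes in smaller clusters or alone had 4 and 4 (16.7% in each list, 6.68 to 35.9), which cannot be told apart from either group at this number. The 8 large clusters together span 13.96 Mb, of which 0.928% and 0.862% was covered, against 3.18% and 4.36% of the remaining 44.5 Mb of the chromosome.

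From the 5′ end of a ZNF gene to the nearest peak the median was 16.5 kb under OTX015, and under the combination it was 71.9 kb, while for the other genes it lay at 4.56 kb and 2.16 kb. More than 100 kb from any peak stood 30 ZNF genes (12.2%) with OTX015 and 102 (41.5%) with the combination, against 10 (0.861%) and 43 (3.70%) of the other genes. The distance differed by cluster, with medians of 23.9 and 155 kb in the 3 clusters named above and 16.4 and 33.2 kb in the other 5 large ones. For the 24 ZNF genes in smaller clusters or alone it was 5.73 and 3.41 kb, the opposite order. The farthest were ZNF611 at 305 kb with OTX015 and ZNF254 at 1541 kb with the combination.

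**Figure D5:**
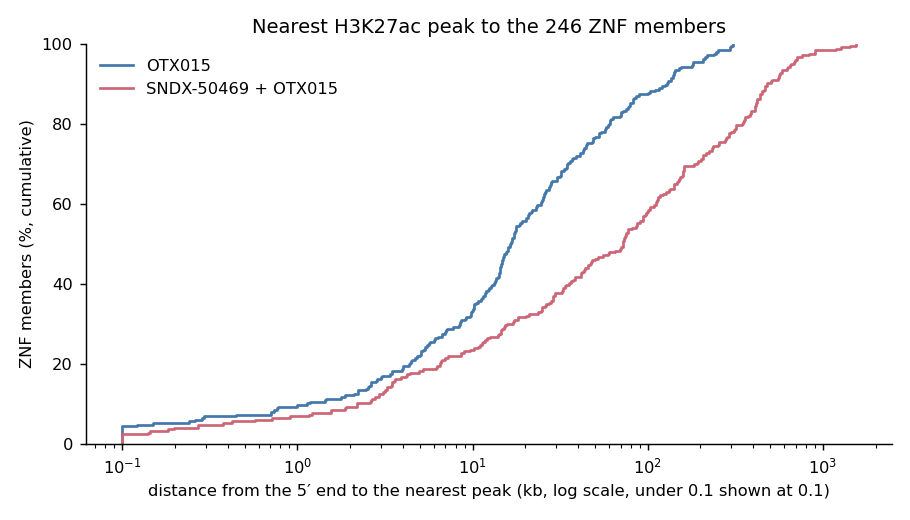
Cumulative percent of the 246 ZNF members (y axis) by the distance from the 5′ end to the nearest peak (x axis, kb, log scale), with 1 line per treatment. The median distances are 16.5 kb (OTX015) and 71.9 kb (combination).

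Sequence features of the promoters were compared over the 300-base RefSeq windows, 250 bases before the start and 50 after it, which were matched for 179 ZNF genes and 868 others. ZNF promoters held a median of 20 CG dinucleotides against 22, and 60% GC against 64%. Among the ZNF genes with a CG count in the highest tier, over 27, 5 and 3 of 31 had a promoter peak, in the middle tier 7 and 7 of 98, and in the lowest tier, at 14 or fewer, 5 and 3 of 50. In each tier the ZNF share was below that of the other genes, for which it was 102 and 127 of 292, 75 and 110 of 269, and 71 and 90 of 307. Members with a peak with OTX015 only had a median of 16.5 CG, those with the combination only 22, those with both 26 and those with neither 20, over only 10, 6, 7 and 156 members. The other genes gave nearly the same order, with 20, 22, 27 and 20.

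Of the motifs searched on both strands, the ETS letters CCGGAAG differed most from the rest of the chromosome, with 45.3% of ZNF promoters against 13.4% of the other genes and 18.8% of all chromosome 19 promoters. CCAAT was held by 53.6% against 38.1%, with 40.8% in all. GGGCGG, the GC box, was held by 65.4% and 65.3%, with 65.3% in all. TATAAA was held by 2.79% against 8.29% (7.35% in all) and the E-box CACGTG by 4.47% against 8.76% (8.02% in all). TGACGTCA, the cAMP response element, was held by 3.91% and 3.80% (3.82% in all), and AAGATGGCG, the YY1 letters, by 4.47% and 3.92% (4.01% in all). The NRF1 motif was held by 12.3% of ZNF promoters and 11.6% of all. No motif searched contains another, and a match is a description of the sequence.

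The ETS match stood close to the start, with a median position of 18 bases before it over 92 matches in 81 ZNF genes and 54 bases before it over 137 matches in 116 others. A promoter peak was found for 9 and 6 of the 81 ZNF genes with these letters and for 8 and 7 of the 98 without them. For the other genes the counts were 39 and 50 of 116 with them and 209 and 277 of 752 without them. In both groups of promoters, the ZNF share was below that of the other genes, and within the ZNF genes the intervals of promoters with and without the letters overlapped in each list (5.96 to 19.8 and 4.19 to 15.3 with OTX015).

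Of the 27 ZNF genes with another protein-coding 5′ end within 2 kb, 3 and 5 had a promoter peak, and of the 219 without one, 21 and 12. For the other chromosome 19 genes the counts were 83 and 99 of 219 with a neighbour and 240 and 310 of 942 without. By gene length, in 3 equal groups from short to long, the peaks with OTX015 were at 8, 8 and 8 members, and those with the combination at 7, 6 and 4, of 82 each. Within the same limits of length the other genes had 180, 61 and 82 with OTX015 and 258, 76 and 75 with the combination, of 720, 196 and 245.

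Genes whose products act with KRAB zinc finger proteins had promoter peaks in equal number in the lists. Of a list of 32 corepressor and heterochromatin genes, all of which matched, 12 had a promoter peak with OTX015 and 12 with the combination, beside 14.9% and 15.3% of all genes, and 10 had it in both. The HP1 genes CBX3 (fold 4.86 and 4.14) and CBX5 (3.55 and 3.63), the NuRD subunits CHD3 (3.81 and 3.85) and HDAC2 (3.91 and 4.38), the DNA methylation genes DNMT1 (4.50 and 4.20) and UHRF1 (3.97 and 3.67), the HUSH complex gene TASOR (4.62 and 4.15), its partner MORC2 (3.79 and 3.80) and SUMO2 (3.67 and 3.67), which encodes a small ubiquitin-like modifier, were among those 10. ATF7IP (3.85), a SETDB1 partner, and MORC3 (3.71) had one with OTX015 only. The histone chaperone gene DAXX (3.70) and the HUSH gene MPHOSPH8 (3.29) had one with the combination only.

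TRIM28 and SETDB1 themselves had no promoter peak in either list. Body cover was 0 and 0.458 kb for TRIM28 and 0.117 and 0.695 kb for SETDB1. Over the list, 15 genes had more body cover with the combination and 11 less, beside 30.8% and 22% of all genes, and the sums were 29.97 and 37.5 kb.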

How the data were processed

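H3K27ac ChIP-seq of MOLM13 was analysed from 1 broad peak list per treatment. Per the submitters' processing notes, the tools were bcl2fastq 2.17, Trimmomatic 0.33, Bowtie 1.1.2, MACS2 2.1.0 and deepTools, with GRCh38. The handling of reads that match several places is not given in the sources used here, and ZNF paralogs share sequence, so reads may have been split or dropped among them. The authors deposited for each peak a score, a −log10 p, a −log10 q and a fold enrichment, which is a ratio of pileup to background with 1 added to each, and peaks were called separately in each library. The score was not used. The fold and −log10 p were used to solve the background of each list, and the −log10 q to filter peaks. The 2 input libraries were not analysed here. The lists give no read totals, so depth was known only as this background.

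From the lists, peak cover, promoter peaks and distances were computed with pandas 2.3.3, numpy 2.4.6, statsmodels 0.14.6 and scipy 1.17.1 in Python 3.11.15, and checked on simulated data. Strand came from the RefSeq promoter table (GRCh38.p14) for 216 members and by symbol from GENCODE for 30, with no coordinate taken from the latter. Wilson 95% intervals cover counting only. The members and lists were chosen with earlier results of these data known.

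Members were named by rule: per list, the 8 highest promoter folds, the 6 strongest promoter peaks found in that list only and the 8 with most body cover, then the 6 largest body differences in each direction, all with a promoter −log10 q of 2 in both lists, and the corepressor genes with a promoter peak, of which 1 is not reported here. ZNF296, ZNF69, ZNF91, ZNF530, the genes farthest from a peak, the 3 clusters and the sequences shown were chosen after their values were seen. Naming by the number of fingers, and a KRAB grouping, needed protein sequences and were not used here. Alternatives were other promoter windows, a minimum overlap of 200 bp, body flanks, merged peaks, stricter or equalised peak sets, other gene sets and, chosen after seeing the data, any RefSeq start and the members without ZNF536.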

Additional observations from a re-analysis of the deposited data

How the results depend on the processing

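ZNF genes stayed below the other chromosome 19 genes in both lists under all 10 promoter settings and all 7 body settings computed for both sets, the reported one included. Equal peak numbers and a common minimum enrichment removed peaks from the combination list only, so the OTX015 values could not change. Merging peaks within 1 kb could not change a promoter count, because the promoter windows are wider than the gaps it fills. In these cases the setting repeats the reported value and adds no check of it. The combination to OTX015 ratio of the ZNF genes was below 1 in 9 of 10 and 6 of 7 of these settings, the exception being −log10 q of at least 2. These counts include equal peak numbers and a common minimum enrichment, which could only lower the ratio. They also include merging, which could not change the promoter ratio. With 10 kb on either side of the gene body this ratio was 0.987, close to 1. That of the other genes was above 1 in 8 of 10 and 6 of 7, with 0.988 at equal peak numbers (promoters) and 0.0898 and 0.116 at a common minimum enrichment (promoters and bodies). Promoter shares are given as OTX015, then combination. With −log10 q of at least 2, which keeps 4211 and 11097 peaks, ZNF promoters were at 1.63% and 2.03% and the others at 8.53% and 10.6%, and body cover was 0.0979% and 0.125% against 1.17% and 1.5%. With 5 kb on either side ZNF promoters were at 22% and 18.3% and the others at 52.1% and 68.6%. The others moved to 21.4% and 25.8% with 0.5 kb, 35.3% and 48.1% with 2 kb, and 22.5% and 27.1% with at least 200 bp covered. With equal peak numbers the combination gave 27.5% for the other promoters and 0.395% for ZNF bodies. One minimum enrichment for both lists kept 1160 combination peaks, with 0.407% of ZNF promoters, 2.50% of the others, 0.0278% of ZNF bodies and 0.504% of the other bodies. Any RefSeq start gave 40.4% for the other promoters with the combination. Beyond the change of peaks, windows, overlap or starts that each setting makes, the cause was not tested. Limiting the members to proteins with a C2H2 finger was not run. No paired analysis was possible because there is 1 library per treatment. Depth was known only as a background level, and no value has replicate error.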

Other observations

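ZNF genes of the other chromosomes had promoter peaks at 53 of 263 with OTX015 and 41 with the combination (20.2% and 15.6%), beside 14.9% and 15.3% of all genes. Their body cover, chromosome 8 included, had the opposite order, with a combination to OTX015 ratio of 1.62, close to the 1.66 of all genes. More cover was found at 66 genes (25.1%) and less at 46 (17.5%), beside 30.8% and 22% of all genes. A single gene held 83.4 kb of their 243 kb with the combination. On chromosome 8 the promoter counts were 9 and 14 of 18 ZNF genes (50% and 77.8%), close to the 48% and 75.4% of its other genes, and without it they were 44 and 27 of 245. Chromosome 7, with 35 ZNF genes, had 3 and 0 (its other genes 11.3% and 8.90%), and chromosome 16, with 30, had 8 and 4 (its other genes 12.3% and 10.8%). None of these differences has a replicate.

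Zinc finger genes of chromosome 19 with other symbols (24 genes, among them the ZFP, ZSCAN and ZBTB families) had promoter peaks at 2 with OTX015 and 3 with the combination. These are 8.33% and 12.5%, beside 27.8% and 35.2% of the other chromosome 19 genes, to which the 24 belong, and 14.9% and 15.3% of all genes. ZFP36, which destabilises AU-rich mRNAs, and ZBTB7A, a repressor of hematopoietic lineages, had one in both lists, and ZBTB32 with the combination only. Body cover was 10.6 and 8.94 kb at ZBTB7A, 7.26 and 3.82 kb at ZFR2 and 2.38 and 1.78 kb at ZFP36. The records ZNF559-ZNF177, ZNF816-ZNF321P, ZNF765-ZNF761 and ZNF470-DT overlap ZNF members, so the 24 are not fully separate from the members. Of these records, ZNF559-ZNF177 (0.595 and 0.313 kb) and ZNF470-DT (0.136 and 0 kb) had less cover with the combination. Less cover with the combination was found for 13 of the 24 (54.2%) and more for 2 (8.33%). For the other chromosome 19 genes these shares were 26.2% and 54.6%, and for all genes 22% and 30.8%.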
